A study of Mus musculus with 19 samples.

Results

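The steroid-metabolizing enzymes described here are 10 genes, listed by name under a rule that uses no measured value, although earlier results of these data were known when the list was made: Hsd11b1, Hsd11b2, Hsd17b2, Hsd17b11, Akr1c14, Akr1c18, Sult1e1, Srd5a1, Srd5a3 and Cyp19a1. All 10 were found among the 49089 genes of the count table, and 8 of them passed the filter on low values (CPM, counts scaled to the library total, of 3 or more in 3 or more of the 19 libraries), as did 17222 genes in all. Sult1e1 and Cyp19a1 did not pass. Endometrium was scraped from the uteri of wild-type (WT) C57Bl/6 females, and RNA of pooled samples, of a pool size not given in the sources used here, was sequenced in 19 libraries. The study calls these biological replicates, and p-values measure the spread between pools. The CONT group (3 libraries, replicates 1, 2 and 4) held virgin, untreated females at estrus, whose age was not given. By the study's methods, their tissue was taken late in the evening, around ovulation, on the day proestrus was detected. The INT group (4 libraries) held females of 8 to 14 weeks mated with intact Balb/c males and killed on day 3.5 pc (post-coitum), shortly before embryos attach. They were killed at midday, so that time of day and group cannot be told apart in INT against CONT. The study gives no separate hour for the other mated groups. The SVX, SVX_VAS and VAS groups (4 libraries each) held females of the same strain, age and day that had been mated with surgically modified Balb/c males. The labels disagree on the surgery. Libraries with the prefix SVX carry a title naming vasectomised males, those with SVX_VAS a title naming seminal vesicle-deficient males, and those with VAS a title naming males with both operations. These 3 groups are therefore named by their prefix alone, and no operation is attached to any of them.

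Steroid hormones reach the uterus from the ovary and adrenal, and the enzymes made in the tissue set how much active hormone meets its receptor. Oxidation of estradiol to estrone, sulfation of estrogen, and reduction of progesterone each lower local hormone activity, whereas aromatase and the reductase form of hydroxysteroid dehydrogenase generate active steroid. In the rodent uterus estrogen drives epithelial growth around estrus, and progesterone prepares the tissue for implantation in the days after mating.

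Library totals ran from 12661266 to 31781270 counts, so that 3 counts corresponded to between 0.107 and 0.234 CPM, the level below which a value was read as background. CPM values were scaled by TMM factors. Endometrial markers were present in every library: the summed level of 12 epithelial genes was 771 to 7106 CPM and that of 10 stromal genes 2329 to 11134 CPM. Several libraries stood apart. INT replicate 1, INT replicate 2 and SVX_VAS replicate 2 held summed levels of 10 estrogen-response genes of 8804, 3394 and 10332 CPM, where CONT held 10618 to 13271 CPM and INT replicates 3 and 4 held 358 and 449 CPM. VAS replicates 2 and 3 held stromal sums of 2329 and 2532 CPM, against 7678 to 11134 CPM in the other mated libraries. Their TMM factors of 1.29 and 1.33 were the highest. Their top gene was Kcnq1ot1, at 0.16% and 0.17% of the counts. In the other libraries it was Malat1 or Gm42418, at 0.72% to 1.41%. The main results that rest on these libraries are also given without them. They were picked after their values were seen. Where they were the highest of their group, leaving them out enlarges a fall by construction. Such fits are descriptions only. In bulk tissue, fewer cells of a type and less RNA per cell cannot be told apart.

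Relative to estrus, 4 of the 8 tested enzymes fell and 1 rose in the INT endometrium. The enzymes that fell were Hsd17b11, Srd5a1, Hsd11b1 and Akr1c18, which inactivates progesterone, and the rise was that of Srd5a3. Akr1c18 passed the filter at its minimum of 3 libraries, 2 of them of CONT, so that its place among the tested enzymes rests mainly on the group in which it was high. The calls of Akr1c18 and Hsd11b1 were lost without CONT replicate 2. That of Srd5a3 was lost, on fold size alone, in 4 of 7 fits without 1 library and in 4 of 8 other settings. Hsd11b2, the glucocorticoid-inactivating enzyme, was the most abundant member per length in both groups and was not called. A gene was called at an FDR (Benjamini-Hochberg adjusted p of edgeR's quasi-likelihood test over all 17222 genes) of 0.05 or less when it also differed by at least 1.5-fold. Differences are given as logFC (log2 fold change). Over all genes tested, 12.7% were called lower and 20.9% were called higher, against 4 and 1 of the 8 enzymes. The study, with limma-voom and edgeR at the same cutoffs, reported far fewer genes for this comparison. Nearly all of those were higher, and none of these enzymes was among the lower ones. The reason for this disagreement was not tested. The libraries of both groups did not overlap for 6 of the 8 enzymes, as for 62.3% of all genes. The median logFC of the 8 enzymes was -0.74, beside a median of -0.01 over all genes.

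**Figure D1:**
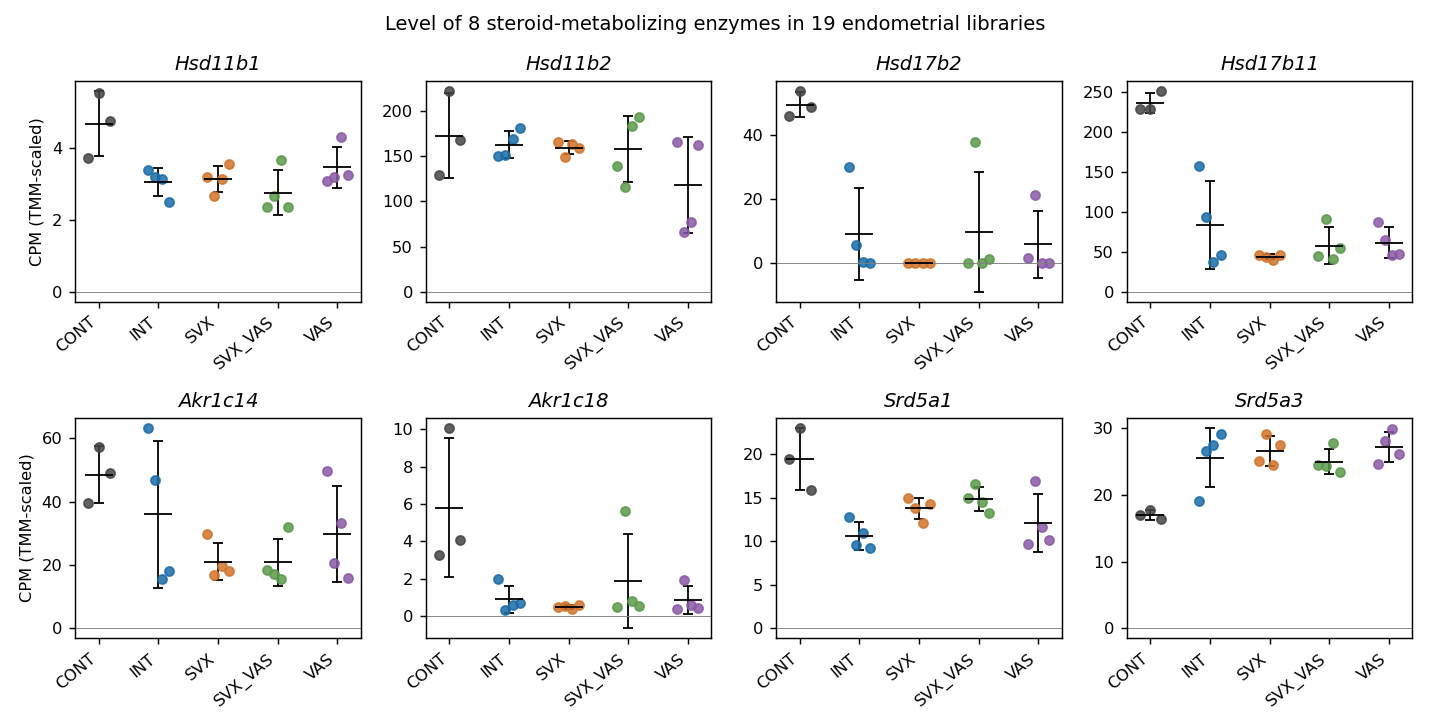
Each panel plots one enzyme in CPM on a linear axis for the 19 libraries, as points by group, with the group mean (line) and SD (bar, which can reach below 0). All mated libraries of Hsd17b11 lie below the 3 CONT libraries, and all those of Srd5a3 lie above them.

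Hsd17b2 (ENSMUSG00000031844.8, chr8:117701904-117759027, plus strand, GRCm38) encodes the dehydrogenase that turns estradiol into estrone and testosterone into androstenedione. Its CONT libraries held 46.1, 53.9 and 48.9 CPM. Its INT libraries held 30.2, 5.76, 0.283 and 0.0696 CPM in the order of replicates 1 to 4. Every INT library lay below every CONT library, but the INT values differed among themselves by far more than the CONT values did. The logFC was -2.46 with an SE of 1.82 (edgeR, FDR = 0.286), and the difference was not called. INT replicates 1 and 2, the pair with high estrogen-response sums, were also the pair with high Hsd17b2. Without them the logFC was -8.02 (edgeR, FDR = 0.0445). As they were the highest INT libraries, a larger fall was fixed by leaving them out, and that fit is not a test. Their part in the result was not tested further.

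Hsd17b2 was at the background in 8 of the 16 mated libraries, which held fewer than 3 counts each. In SVX it had 2, 0, 2 and 0 counts, so that all 4 libraries lay below the floor. Against the largest 3-count floor of a SVX library, 0.234 CPM, it was at least 211.7-fold lower than the CONT mean. In SVX_VAS the values were 0, 37.9, 0.0655 and 1.24 CPM, and in VAS they were 1.74, 21.4, 0.140 and 0.0702 CPM. One library of each of these groups, replicate 2 in both, held most of the signal. SVX was called lower than CONT (edgeR, FDR = 0.0088), whereas SVX_VAS with a logFC of -2.33 and VAS with a logFC of -3.07 were not (edgeR, FDR = 0.295 and 0.166). Without VAS replicates 2 and 3 the VAS logFC was -5.63 (edgeR, FDR = 0.0651), still not called. Without SVX_VAS replicate 2 the SVX_VAS logFC was -6.94 and was called (edgeR, FDR = 0.015). The larger fall again follows from leaving out the highest library.

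Hsd17b11 (ENSMUSG00000029311.16, chr5:103989762-104021919, minus strand) encodes a dehydrogenase found on lipid droplets that can oxidize androstanediol. Its CONT libraries held 229, 229 and 251 CPM. The INT libraries held 157, 94.0, 37.1 and 46.2 CPM. The groups did not overlap, and INT replicates 1 and 2 were again the highest of their group. Hsd17b11 was 2.83-fold lower in INT, with an SE of 0.39 on the log2 scale (edgeR, FDR = 0.00475). Hsd17b11 also fell in SVX (logFC -2.43), SVX_VAS (logFC -2.03) and VAS (logFC -1.94), with edgeR FDR of 8.84e-05, 0.000452 and 0.000604. It was the one enzyme called lower in all 4 comparisons with CONT, which share the CONT libraries and so are not independent of each other. Without INT replicates 1 and 2 the INT logFC was -2.51 (edgeR, FDR = 4.38e-05). Without VAS replicates 2 and 3 the VAS logFC was -1.76 (edgeR, FDR = 0.0114). The SVX libraries were close together at 40.2 to 46.1 CPM.

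Akr1c14 and Akr1c18 are aldo-keto reductases of a cluster on chromosome 13, and their coding sequences resemble each other. Akr1c14 (ENSMUSG00000033715.14, chr13:4049011-4090422, plus strand) reduces the 3-keto group of dihydrotestosterone and dihydroprogesterone. Akr1c18 (ENSMUSG00000021214.13, chr13:4132615-4150654, minus strand) reduces progesterone at carbon 20. Both have 969 coding bases in the GENCODE annotation, of which 76.0% are the same position by position. The longest identical run was 48 bases, shorter than a 50-base window. Their first coding exons, of 84 bases each and read from GENCODE transcripts (GRCm38), are shown because reads of related genes can be told apart only where their sequences differ. Capitals mark the 30 positions at which they differ. The first is chr13:4059632-4059715 (plus strand) and the second chr13:4150515-4150598 (minus strand).
Akr1c14: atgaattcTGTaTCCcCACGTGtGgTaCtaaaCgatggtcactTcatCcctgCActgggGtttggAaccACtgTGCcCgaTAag
Akr1c18: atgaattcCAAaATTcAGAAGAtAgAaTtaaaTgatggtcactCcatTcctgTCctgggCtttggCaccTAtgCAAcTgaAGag
Of all 50-base windows of the transcripts, 5.8% of Akr1c14 were shared with Gm18857, an annotated gene that overlaps its exons on the same strand, and 0.581% of Akr1c18 were shared with Akr1cl. Reads from the shared stretches may have been dropped or divided.

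Akr1c14 stood at 39.5, 57.2 and 49.0 CPM in CONT. The INT libraries held 63.3, 47.0, 15.6 and 18.2 CPM. The groups overlapped, with INT replicates 1 and 2 at the level of estrus and replicates 3 and 4 below it. The INT logFC of -0.43 with an SE of 0.45 was not called (edgeR, FDR = 0.466). Without INT replicates 1 and 2, its highest INT libraries, it was -1.53 (edgeR, FDR = 0.0103), a fall enlarged by that choice. Akr1c14 fell in SVX (29.7, 16.8, 19.8 and 18.2 CPM, logFC -1.20, edgeR FDR = 0.0333) and in SVX_VAS (18.3, 17.3, 15.7 and 31.9 CPM, logFC -1.23, edgeR FDR = 0.0321). Both calls were lost when CONT replicate 2 or 4, or any of 3 libraries of the mated group, was left out, with edgeR FDR up to 0.0969 and 0.0941. In VAS the libraries held 49.6, 20.5, 33.4 and 15.9 CPM, overlapping CONT, and the logFC of -0.70 was not called (edgeR, FDR = 0.197).

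Akr1c18 was low throughout. Its CONT libraries held 3.25, 10.1 and 4.07 CPM, and its INT libraries held 1.95, 0.313, 0.567 and 0.696 CPM. The groups did not overlap, and CONT replicate 2 and INT replicate 1 were the highest of their groups. The logFC was -2.74 with an SE of 0.84 (edgeR, FDR = 0.0135). Without CONT replicate 2 it was -2.06 and no longer called (edgeR, FDR = 0.0792). Akr1c18 reached 3 CPM before scaling in only 3 libraries, 2 of CONT and 1 of the mated groups, so that it passed the filter mainly through the group in which it was high. It also fell in SVX (logFC -3.57, edgeR FDR = 0.00272) and VAS (logFC -2.78, edgeR FDR = 0.00958), the latter lost without CONT replicate 2 (edgeR, FDR = 0.0609). In SVX_VAS, replicate 2 held 5.62 CPM while the other libraries held 0.480 to 0.786 CPM, and the logFC of -1.64 was not called (edgeR, FDR = 0.0949). Without that library, the highest of its group, it was -3.29 and was called (edgeR, FDR = 0.00122), a fall enlarged by that choice. The INT logFC without INT replicates 1 and 2 was -3.20 (edgeR, FDR = 0.0269). The VAS logFC without VAS replicates 2 and 3 was -3.79 (edgeR, FDR = 0.011).

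Hsd11b1 and Hsd11b2 act on glucocorticoids in opposite directions, the first restoring corticosterone from its inactive ketone with NADPH and the second inactivating it. Hsd11b1 (ENSMUSG00000016194.14, chr1:193221634-193264075, minus strand) was near the filter, at 3.72, 5.53 and 4.75 CPM in CONT. The INT libraries held 3.38, 3.19, 3.12 and 2.50 CPM. The groups did not overlap, but the gap between the lowest CONT and the highest INT library was narrow. The logFC was -0.61 with an SE of 0.20 (edgeR, FDR = 0.0202). The call was lost under upper quartile scaling (logFC -0.49, edgeR FDR = 0.0723), and also without CONT replicate 2 (edgeR, FDR = 0.111), CONT replicate 4 (edgeR, FDR = 0.0524) or INT replicate 4 (edgeR, FDR = 0.0631). With INT replicates 1 and 2 left out, the INT logFC was -0.73 (edgeR, FDR = 0.0323). Hsd11b1 fell in SVX_VAS (logFC -0.76, edgeR FDR = 0.00484). In SVX the logFC of -0.58 lay inside the fold limit (edgeR, FDR = 0.0235), and in VAS the logFC of -0.43 was not called (edgeR, FDR = 0.0779).

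Hsd11b2 (ENSMUSG00000031891.6, chr8:105518755-105523988, plus strand) held 129, 222 and 168 CPM in CONT. The INT libraries held 150.1, 151, 169 and 181 CPM. The groups overlapped, and the INT values lay within the CONT range. The logFC was -0.09 (edgeR, FDR = 0.834), with a 95% interval from -0.68 to 0.51. It was 0.04 under upper quartile scaling, so that no direction is given. In VAS, replicates 2 and 3 held 66.6 and 77.5 CPM against 166 and 162 CPM in replicates 1 and 4, and the logFC against CONT was -0.55 (edgeR, FDR = 0.103). Without those libraries, which also had low stromal sums, it was -0.03 (edgeR, FDR = 0.92).

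Srd5a1 and Srd5a3 bear the name of steroid 5-reductases. Srd5a1 (ENSMUSG00000021594.10, chr13:69573449-69611442, minus strand) reduces testosterone and progesterone to their dihydro forms, and 15.1% of its 50-base windows were shared with Gm17108, which overlaps it on the same strand. It held 19.4, 23.0 and 15.9 CPM in CONT. The INT libraries held 12.8, 9.58, 10.9 and 9.18 CPM, all below the CONT libraries. The logFC was -0.87 with an SE of 0.18 (edgeR, FDR = 0.000973), and no other setting or left-out library that was run ended that call. Srd5a1 also fell in VAS (logFC -0.68, edgeR FDR = 0.00451), where replicate 2 at 16.9 CPM overlapped CONT. That call was lost under upper quartile scaling (logFC -0.47), in a fit of only the libraries of these groups (edgeR, FDR = 0.0655) and without CONT replicate 2 (logFC -0.54). With VAS replicates 2 and 3 left out, the VAS logFC was -0.93 and was called (edgeR, FDR = 0.000549). With INT replicates 1 and 2 left out, the INT logFC was -0.95 (edgeR, FDR = 0.00306). SVX with a logFC of -0.50 and SVX_VAS with a logFC of -0.39 were not called (edgeR, FDR = 0.0283 and 0.0797).

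Srd5a3 (ENSMUSG00000029233.15, chr5:76140271-76155504, plus strand) is best known for the reduction of polyprenol to dolichol, the lipid on which N-linked sugars are built. It held 16.95, 17.7 and 16.35 CPM in CONT. The INT libraries held 19.1, 26.7, 27.5 and 29.2 CPM, all above the CONT libraries, with replicate 1 the lowest. The logFC was 0.59 with an SE of 0.12 (edgeR, FDR = 0.00103), just past the 1.5-fold limit. It fell short of that limit in 4 of 7 fits that left out 1 library and in 4 of 8 other settings, with a logFC of 0.52 to 0.57 and an edgeR or limma-voom FDR of at most 0.00732. Srd5a3 rose in SVX (logFC 0.64, edgeR FDR = 0.000359) and VAS (logFC 0.68, edgeR FDR = 0.000282), whereas in SVX_VAS the logFC of 0.56 lay short of the fold limit (edgeR, FDR = 0.00135). The INT logFC without INT replicates 1 and 2 was 0.74 (edgeR, FDR = 8.19e-05). The VAS logFC without VAS replicates 2 and 3 was 0.62 (edgeR, FDR = 0.0027). Every one of the 16 mated libraries was above all 3 CONT libraries.

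**Figure D2:**
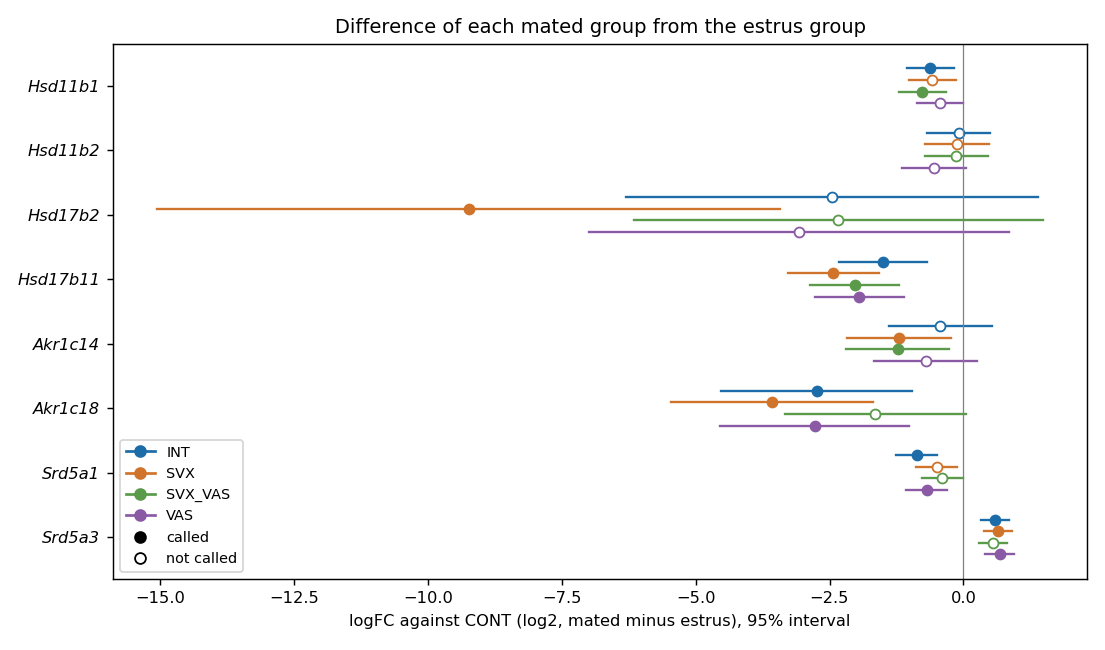
The logFC of each mated group against CONT is plotted on the horizontal axis for the 8 tested enzymes, with its 95% interval as a line, and filled points mark calls. Hsd17b11 is called in all 4 comparisons and Hsd11b2 in none, and the intervals of Hsd17b2 are the widest.

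Sult1e1 and Cyp19a1 were near or below detection. Sult1e1 (ENSMUSG00000029272.8, chr5:87575969-87591594, minus strand) encodes the estrogen sulfotransferase, which makes estrogen unable to bind its receptor. It had 1, 3 and 1 counts in CONT and 0 counts in all 16 mated libraries, which allows up to 0.234 CPM in the shallowest of them. With CONT at or under the floor as well, no fold is given, and without the filter the INT difference had an edgeR FDR of 0.0728. Cyp19a1 (ENSMUSG00000032274.8, chr9:54165937-54193442, minus strand) encodes aromatase, which makes estrogen from androgen. It had 1 count in all 19 libraries together, in VAS replicate 1. Neither transcript was detectable above the floor at this depth.

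Against CONT, the other mated groups gave 5 called enzymes in SVX, 3 in SVX_VAS and 4 in VAS, of 8 tested. The share of all genes called was 41.6% in SVX, 38.6% in SVX_VAS and 40.6% in VAS. By direction, 4, 3 and 3 of the 8 enzymes were lower, beside 18.5%, 16.5% and 17.3% of all genes, and 1, 0 and 1 were higher, beside 23.1%, 22.2% and 23.3%. With 1 library left out the counts were 4 to 6, 2 to 4 and 2 to 5, beside 37.6% to 42.5%, 33.5% to 39.9% and 35.8% to 47.9% of all genes. The count of 2 in VAS was that without CONT replicate 2, and the Akr1c14 calls in SVX and SVX_VAS were each lost in 5 of 7 such fits. The called enzymes in SVX were Hsd17b2, Hsd17b11, Akr1c14 and Akr1c18, which fell, and Srd5a3, which rose. In SVX_VAS, Hsd11b1, Hsd17b11 and Akr1c14 fell. Without SVX_VAS replicate 2 the called enzymes there were Hsd11b1, Hsd17b2, Hsd17b11 and Akr1c18. In VAS, Hsd17b11, Akr1c18 and Srd5a1 fell and Srd5a3 rose. An enzyme called in one group and not in another is not thereby shown to differ between them.

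The direct comparisons among mated groups asked whether the operation on the male changed the enzymes. No enzyme was called in SVX, SVX_VAS or VAS against INT, where 0% of genes were called in each comparison. No enzyme differed among the 4 mated groups in a joint edgeR test either, in which 0% of genes were called, and the lowest FDR of an enzyme was 0.635. At an unadjusted edgeR p under 0.05 there were 3 enzymes in SVX against INT, 1 in SVX_VAS and 0 in VAS and in the joint test, among 749, 339, 1831 and 1213 genes. DESeq2 and limma-voom called 0 enzymes in each of these comparisons, while DESeq2 called 3, 2, 0 and 21 genes and limma-voom called 0, 0, 1663 and 1396 genes. Srd5a1 was the enzyme nearest to a difference: its SVX_VAS libraries held 15.0, 16.5, 14.5 and 13.2 CPM, all above the INT libraries, with a logFC of 0.48 (edgeR, unadjusted p = 0.0126, FDR = 1). In SVX it was 14.9, 13.8, 12.1 and 14.2 CPM, with a logFC of 0.38 against INT (edgeR, unadjusted p = 0.0427, FDR = 1). The other enzymes under that unadjusted level were Hsd17b2 and Hsd17b11 in SVX, with a logFC of -6.78 and -0.93. Without INT replicates 1 and 2 these were -1.22 and 0.08, and the sign for Hsd17b11 turned.

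The intervals show how much of a difference among mated groups these libraries could still hold. For Srd5a3 the 95% interval of the logFC against INT ran from -0.19 to 0.29 in SVX, from -0.27 to 0.21 in SVX_VAS and from -0.15 to 0.33 in VAS. For Hsd11b2 it ran from -0.58 to 0.52 in SVX and from -1.02 to 0.09 in VAS. For Hsd17b2 in SVX_VAS it ran from -3.42 to 3.67, so that even a large difference was not detectable.

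The enzymes ranked differently by level before and after mating. Per kilobase of transcript, Hsd11b2 led in CONT at 94.0 ± 25.5 CPM (SD, n = 3), with Hsd17b11 at 72.4 ± 3.98 CPM next and within its spread. Hsd17b2 at 25.8 ± 2.04 and Akr1c14 at 16.3 ± 2.98 CPM followed, and their libraries did not overlap. Srd5a1 at 6.74 ± 1.23, Akr1c18 at 4.81 ± 3.10 and Srd5a3 at 3.66 ± 0.149 CPM came next, with Akr1c18 overlapping both neighbours, and Hsd11b1 was last at 1.10 ± 0.213 CPM. In INT, Hsd11b2 stood at 88.4 ± 8.03 CPM (SD, n = 4), above Hsd17b11 at 25.6 ± 16.8 CPM in every library. Akr1c14 at 12.1 ± 7.78 CPM overlapped Hsd17b11, and Hsd17b2 at 4.72 ± 7.45 CPM overlapped Akr1c14. Srd5a3 at 5.51 ± 0.964 CPM lay above Srd5a1 at 3.69 ± 0.563 CPM, the reverse of their order at estrus, although their ranges still touched through INT replicate 1.

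The level of several enzymes ran with summed marker genes across libraries. Over the 16 mated libraries, Pearson's r was taken between log2 CPM and the log2 summed level of 10 estrogen-response genes. It was 0.91 for Hsd17b2, 0.94 for Hsd17b11, 0.65 for Akr1c14 and 0.63 for Akr1c18. For the other enzymes it was -0.03 (Hsd11b1), -0.23 (Hsd11b2), 0.11 (Srd5a1) and -0.60 (Srd5a3). Of the estrogen-response sum, Ltf, C3, Lcn2 and Muc4 made up 95% to 95.9% in CONT and 40.6% to 96.3% in the mated libraries. For Hsd17b2, Hsd17b11, Akr1c14 and Akr1c18 in turn, r with the summed epithelial genes was 0.71, 0.89, 0.69 and 0.32. Their r with the summed endothelial genes was -0.75, -0.74, -0.74 and -0.35. For Hsd11b1, Hsd11b2, Srd5a1 and Srd5a3 in turn, the epithelial r was -0.22, 0.22, -0.14 and -0.67. The endothelial r of these was -0.28, 0.50, 0.07 and 0.27. Without INT replicate 1 and VAS replicate 1, the epithelial r was 0.42 for Akr1c14 and -0.49 for Srd5a3. These values are descriptions without a test: the libraries share depth and composition, and they fall into several clusters. Without the libraries farthest from the median, SVX_VAS replicate 2 and INT replicate 1, r was 0.82 for Hsd17b2 and 0.95 for Hsd17b11, but 0.89 for Akr1c14 and -0.05 for Akr1c18. The relation of Akr1c18 therefore rested on those libraries, and the r of Srd5a3 was -0.26 without them. Hsd11b2 had an r of 0.93 with the summed stromal genes, which was 0.43 without VAS replicates 2 and 3.

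**Figure D3:**
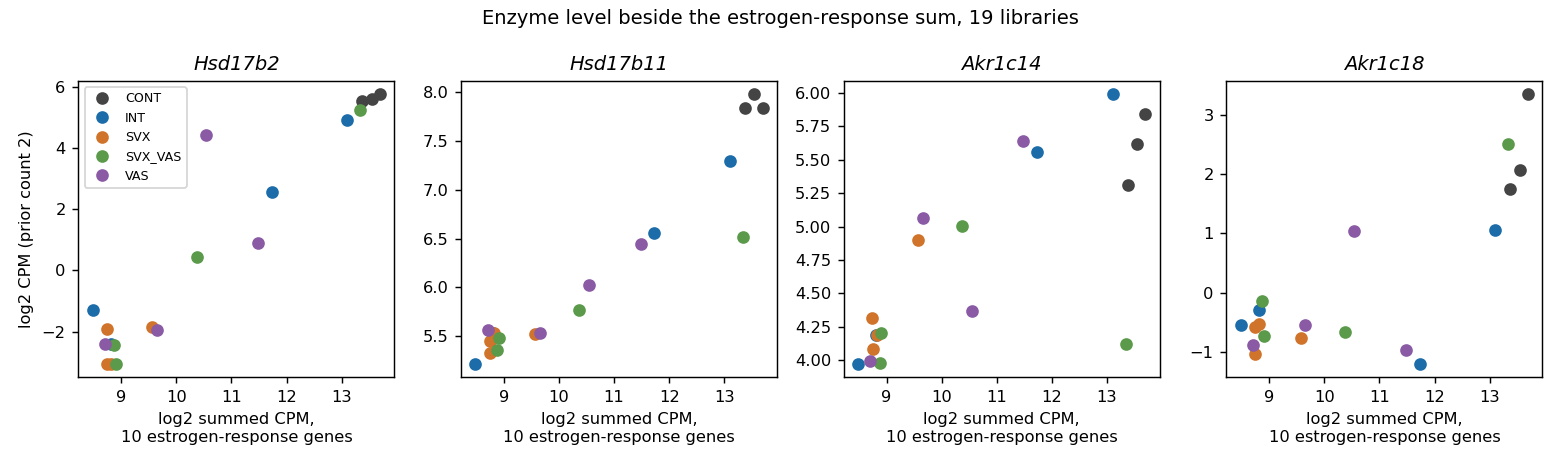
Each panel plots the log2 CPM of one enzyme against the log2 summed CPM of 10 estrogen-response genes, with 1 point for each of 19 libraries coloured by group. SVX_VAS replicate 2, INT replicate 1 and INT replicate 2 lie toward the CONT libraries for Hsd17b2, whereas SVX_VAS replicate 2 lies low for Akr1c14.

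Cell type markers moved with the same comparison. Of 12 epithelial genes, 8 fell and 0 rose in INT, with a summed level of 897 to 3315 CPM against 5312 to 7106 CPM in CONT. Of 8 endothelial genes, 8 rose (719 to 1083 against 195 to 280 CPM), as did 6 of 10 stromal genes, 3 of 8 smooth muscle genes, 7 of 8 leukocyte genes tested (Cd68 fell), 6 of 8 glandular genes and 10 of 12 progesterone-response genes. Of 10 estrogen-response genes, Muc1 and Fabp5 fell, and Ckb, Clca3a1 and Cyp2d22 rose, while the other 5 were not called. Without INT replicates 1 and 2, Ltf, C3, Lcn2 and Muc4 were called lower too, which made 6 lower and 3 higher, as in SVX against CONT. These added calls are not a separate result. The libraries were set apart by their estrogen-response sums, of which these genes made up 95.8% in replicate 1 and 91.1% in replicate 2. Leaving them out therefore lowers the INT level of these genes by construction. Examples were the epithelial factor Elf3 (logFC -2.41), the stromal Hoxa11 (logFC 2.72) and the endothelial Emcn (logFC 2.44). Of the ovary list only 3 of 12 genes passed the filter, and its sum was 20.8 to 35.9 CPM in all libraries. Of 5 oviduct genes 1 rose and 2 fell, and of 3 tested genes of mesothelium and fat 1 rose. Their part in the enzymes' differences was not tested.

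By log2 CPM over all 19 libraries, Hsd17b2 and Hsd17b11 were like each other (r = 0.90), and Srd5a3 ran against Hsd17b11 (r = -0.89). Akr1c18 was like Hsd17b2 (r = 0.82) and Srd5a1 (r = 0.76), but less like its neighbour Akr1c14 (r = 0.36). Hsd11b2 was unlike every other member, with r between -0.29 and 0.12. These are descriptions over libraries that share the contrast of estrus with day 3.5 pc.

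**Figure D4:**
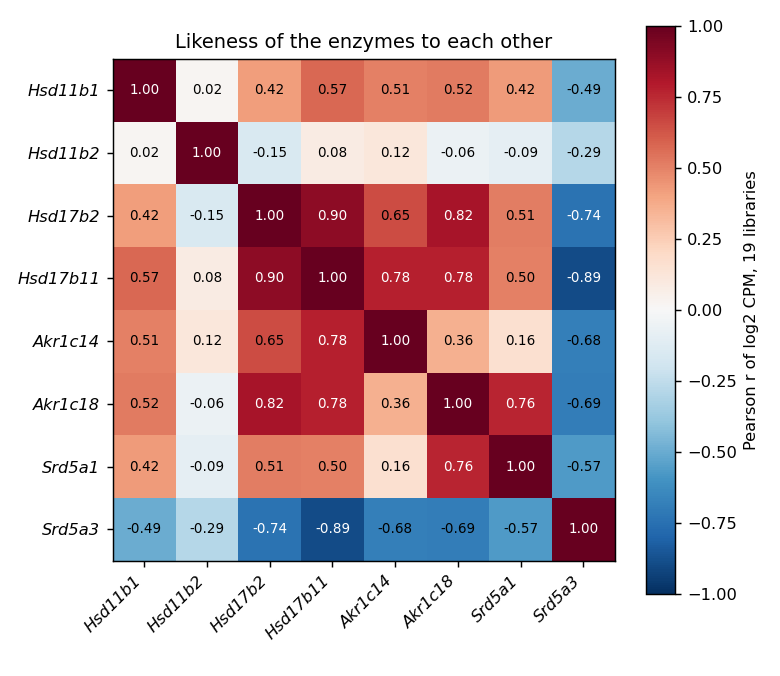
The grid gives Pearson's r of log2 CPM over 19 libraries for each pair of the 8 tested enzymes, red for positive and blue for negative. Srd5a3 is negative with all others, and Hsd11b2 is close to 0 with most.

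Among all genes tested, the 3 most like Hsd17b2 were Otop1 (r = 0.99), Gm45776 (r = 0.98) and Egln3 (r = 0.98). For Hsd17b11 they were Plekhb2, Bace2 and Fbxo28 (each r = 0.99). For Akr1c14 they were 4930425L21Rik, Mgam and Shisa2 (r = 0.94 to 0.95), and for Akr1c18 they were Scamp5, Smcr8 and Trak1 (r = 0.95 to 0.96). Srd5a3 was closest to Cep250, Rnf144a and Pnmal2 (r = 0.95 to 0.96). Hsd11b2 was closest to Gm28437, Aebp1 and Gm26827 (r = 0.92 to 0.94), Hsd11b1 to Htra3, Dclre1b and Slc45a4 (r = 0.81 to 0.85), and Srd5a1 to Rab3gap2, Lmo4 and Gm10115 (r = 0.79 to 0.81).

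Other steps of steroid handling were described from lists of related genes in INT against CONT. Of 4 further genes of the 17beta-hydroxysteroid dehydrogenase family tested, 1 fell: Hsd17b12, a ketoacyl reductase of fatty acid elongation (logFC -0.99, edgeR FDR = 0.00137). Of 16 listed genes for synthesis from cholesterol, only 8 passed the filter. Cyp11a1, Hsd3b1 and Cyp17a1 did not, with at most 14, 2 and 7 counts in any library. Of the 8 tested, 4 fell and 0 rose, among them the P450 electron donor Por (logFC -1.19, edgeR FDR = 0.000106). The largest fall there was that of Cyp21a1, the 21-hydroxylase (logFC -2.98, edgeR FDR = 0.0498), which overlaps Tnxa on the opposite strand. Its INT libraries held 19.4, 15.2, 0.340 and 0.556 CPM, and its logFC was -7.28 without INT replicates 1 and 2 (edgeR, FDR = 0.00204) and -2.62, not called, without INT replicate 3 (edgeR, FDR = 0.0871). Of 6 other aldo-keto genes, Akr1c13 (logFC -1.60) and Akr1c19 (logFC -1.31) fell and Akr1b8 rose (logFC 1.96), with edgeR FDR of 0.0119, 9.59e-05 and 2.48e-06.

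Conjugation genes moved both ways. Of 10 tested, the sulfotransferases Sult1a1 (logFC 2.12, edgeR FDR = 7.26e-05) and Sult1d1 (logFC 1.44, edgeR FDR = 0.00494) rose, in contrast to the near absence of Sult1e1. Papss2, which makes the sulfate donor, and 3 glucuronosyltransferases fell. The largest fall was that of Ugt1a7c (logFC -1.96, edgeR FDR = 0.0268), which shares exons with the other Ugt1a genes, and Sult1a1 overlaps Sgf29 on the opposite strand. Ugt1a7c held 56.3, 34.1, 10.1 and 10.8 CPM in INT, and its logFC was -3.37 without INT replicates 1 and 2 (edgeR, FDR = 0.0039) and -1.72, not called, without INT replicate 3 (edgeR, FDR = 0.0634). Among 7 P450 and methyltransferase genes, 4 rose and 2 fell. Cyp26a1, which clears retinoic acid and is also in the progesterone-response list, had the highest logFC (5.38, edgeR FDR = 0.0176), but its INT libraries held 3.23, 4.13, 101.9 and 1.95 CPM. Without INT replicate 3 its logFC was 2.17 and not called (edgeR, FDR = 0.178). Cyp1b1, an estrogen hydroxylase, held 38.9 to 77.0 CPM in every INT library against 0.118 to 3.82 CPM in CONT (logFC 4.99, and 4.81 without INT replicate 3). Cyp3a13 fell most (logFC -2.65, edgeR FDR = 0.00072).

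Genes that work beside Hsd11b1 and Srd5a3 were tested too. H6pd, which supplies the NADPH for Hsd11b1, fell (184 against 406 CPM, logFC -1.14, edgeR FDR = 0.00194), and the mineralocorticoid receptor Nr3c2 rose (logFC 0.74, edgeR FDR = 0.00648, and not called without INT replicates 1 and 2 at an edgeR FDR of 0.0509, with Gm10649 on the opposite strand), whereas the other 5 of 7 were not called. Of 7 genes of the dolichol pathway that Srd5a3 serves, 3 fell and 0 rose, the largest fall being that of Dolpp1 (logFC -1.36, edgeR FDR = 0.00021), which overlaps Crat on the opposite strand.

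**Figure D5:**
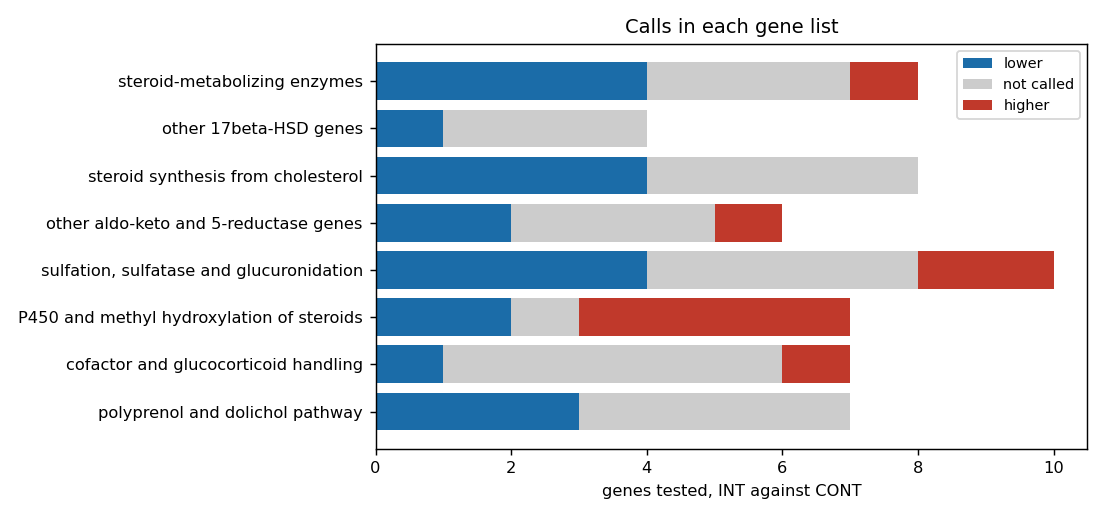
Horizontal bars count the genes tested in the enzymes and 7 lists of related genes for INT against CONT, split into lower, not called and higher. The steroid-metabolizing enzymes have 4 lower, 3 not called and 1 higher, and the P450 list has 4 higher of 7.

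Promoters were read from RefSeq (GRCm38.p6) as the 250 bases before to 50 bases after the start, for 8 of the 10 enzymes. The other two are Hsd11b2 and Hsd17b2. 3 motifs were searched on both strands. The estrogen response element was GGTCA, any 3 bases, then TGACC. The steroid receptor palindrome was AGAACA, any 3 bases, then TGTTCT, and its single arm was AGAACA, also where it lies inside the palindrome. These letters were not found in the 10 promoters of these 8 genes. Among 32851 promoters of that length they occurred in 0.07%, 0.00913% and 19%. The promoters differed in CG dinucleotides, counted in the 250 bases before the start. Srd5a1 had 20, Srd5a3 19 and Hsd17b11 13, above the median of 6 over all promoters, whereas Akr1c18 had 5 and Akr1c14 and Sult1e1 had 1 each. Srd5a1 and Akr1c18, which fell, and Srd5a3, which rose, are shown, with CG in capitals. They lie at chr13:69611464-69611713 (minus strand), chr13:4150647-4150896 (minus strand) and chr5:76140023-76140272 (plus strand).
Srd5a1: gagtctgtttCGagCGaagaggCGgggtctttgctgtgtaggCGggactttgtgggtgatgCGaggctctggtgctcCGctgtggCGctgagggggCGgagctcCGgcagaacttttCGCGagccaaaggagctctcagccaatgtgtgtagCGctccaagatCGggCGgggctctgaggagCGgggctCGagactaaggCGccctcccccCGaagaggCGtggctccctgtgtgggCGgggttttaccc
Akr1c18: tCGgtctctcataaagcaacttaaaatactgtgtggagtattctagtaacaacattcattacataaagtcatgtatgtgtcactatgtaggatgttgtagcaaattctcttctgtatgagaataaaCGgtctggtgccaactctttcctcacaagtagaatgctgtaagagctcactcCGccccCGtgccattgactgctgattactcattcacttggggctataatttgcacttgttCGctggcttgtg
Srd5a3: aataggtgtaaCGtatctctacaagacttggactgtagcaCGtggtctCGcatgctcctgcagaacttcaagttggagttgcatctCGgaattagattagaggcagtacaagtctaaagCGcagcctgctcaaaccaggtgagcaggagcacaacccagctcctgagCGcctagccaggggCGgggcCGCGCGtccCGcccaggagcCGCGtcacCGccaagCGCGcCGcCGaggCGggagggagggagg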

How the data were processed

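RNA from mouse endometrium was sequenced in 19 libraries (TruSeq Stranded total RNA, paired-end). The authors deposited raw read counts per gene: reads were checked with FastQC, aligned with STAR to GRCm38/mm10 and counted with featureCounts, per the labels and the study's methods. The versions and the strand setting were not given in the sources used here. Gene symbols were matched for 48349 of 49089 genes. From the deposited counts, 17222 genes that reached 3 CPM in 3 or more libraries were kept, scaled by TMM and fitted over all 5 groups with edgeR 4.0.16 (quasi-likelihood, R 4.3.3), with Benjamini-Hochberg adjustment. A call required a 1.5-fold difference at an FDR up to 0.05. Log2 CPM used a prior count of 2. DESeq2 1.42.0 and limma 3.58.1 (voom) were alternatives, with other scalings, filters and left-out libraries. Library totals were 12661266 to 31781270 counts, and values were read down to 3 counts. These floors cover counting error only, whereas intervals of a logFC come from edgeR and include the spread between libraries. The edgeR script was tested on simulated data. The 10 members and the lists were chosen with earlier results of these data known. Named genes were all members and the 3 genes most correlated with each tested member. In each list of related genes, the called genes with the largest rise and fall in INT against CONT were named. Only some of the marker lists had genes named, among them Elf3, Hoxa11, Emcn, Cd68, Muc1 and Ckb. Others were named after their values were seen: Por, Cyp11a1, Hsd3b1, Cyp17a1, Akr1c19, Sult1d1, Papss2, Cyp1b1, Fabp5, Clca3a1, Cyp2d22, Ltf, C3, Lcn2 and Muc4. Promoter and transcript sequences were read with Python 3.11.15 from RefSeq (GRCm38.p6) and GENCODE tables.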

Additional observations from a re-analysis of the deposited data

Results flagged for a closer look

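Among 32 sets of 4 mated libraries examined, 6 held a library whose gap to the nearest other library, as a share of the whole range, was above 0.829. Chance gives about 1 such set in 20 for normally spread values, which CPM near the floor need not be. The sets also share libraries, so their number was not compared with chance. SVX_VAS replicate 2 was high for Hsd17b2 (37.9 CPM, the others at 1.24 CPM or less) and for Akr1c18 (5.62 CPM, the others 0.480 to 0.786 CPM). VAS replicate 2 was high for Hsd17b2 (21.4 CPM, the others at 1.74 CPM or less) and for Akr1c18 (1.95 CPM, the others 0.392 to 0.561 CPM). SVX_VAS replicate 4 was high for Akr1c14 (31.9 CPM, the others 15.7 to 18.3 CPM), and VAS replicate 3 was high for Hsd11b1 (4.30 CPM, the others 3.08 to 3.23 CPM). The estrogen-response sums of SVX_VAS replicate 2 and VAS replicate 2 were 10332 and 1496 CPM, while VAS replicate 1, with Hsd17b2 at 1.74 CPM, had a sum of 2854 CPM. Their part in these values was not tested.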

How the results depend on the processing

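Under the other scalings, filters and tools, the replicate block and fits that left out 1 library, 267 values of the enzymes' logFC in INT against CONT, or in a comparison in which the enzyme was called, kept their direction and side of the threshold, 28 lost their call, 2 turned sign without a call (Hsd11b2 in INT against CONT, 0.04 with upper quartile scaling and 0.13 without CONT replicate 2) and 1 gained a call (Hsd17b2 in INT against CONT with limma-voom, logFC -5.17, FDR 0.00303). DESeq2 gave no adjusted p for Hsd17b2 in INT or SVX against CONT. Called enzymes in INT against CONT numbered 3 to 5 when 1 library was left out, 3 without CONT replicate 2, CONT replicate 4 or INT replicate 4 (32.9%, 31.5% and 29.5% of all genes, in a range of 28.6% to 36.4%). With limma-voom 6 enzymes were called in SVX, 5 in SVX_VAS and 5 in VAS against CONT, beside 42.3%, 40.6% and 50.9% of all genes. In VAS against CONT the number was 2 to 5 with 1 library left out, 2 without CONT replicate 2 (39.9% of all genes, in a range of 35.8% to 47.9%). Genes called among the mated groups were 21 (DESeq2) and 1396 (limma-voom) in the joint test, 3 in SVX against INT and 2 in SVX_VAS against INT with DESeq2, and 1663 in VAS against INT with limma-voom. With 1 library left out they were 0 to 171 in the joint test (171 without VAS replicate 4) and 0 to 578 in VAS against INT (578 without VAS replicate 1, 135 without VAS replicate 4); the cause was not tested. Upper quartile scaling moved the median logFC over all genes against CONT to between 0.12 and 0.16 and the split in INT against CONT to 4140 higher and 1683 lower, from 3599 and 2192. With INT replicates 1 and 2 left out, chosen after seeing the data, 7 enzymes and 38.9% of all genes were called in INT against CONT. No pairing by replicate number was seen, and a shared batch was not tested. The correlation of same-numbered deviations was -0.69 to 0.58 over 36 pairs (median 0.05). That of other-numbered deviations was -0.75 to 0.77 over 108 pairs (median -0.03). With the replicate block, 4 enzymes and 5606 genes were called in INT against CONT. It called 6, 4 and 5 enzymes in SVX, SVX_VAS and VAS against CONT, beside 40.2%, 37.2% and 39.4% of all genes. Depth limits Hsd17b2 in SVX, Sult1e1 and Cyp19a1, which lie at or under 3 counts in each library.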
